A study of Rattus norvegicus with 6 samples.

Results

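The genes described here are 9 genes of the Schwann cell myelin program, namely Pmp22, Mbp, Pmp2, Prx, Ncmap, Mag, Cnp, Egr2 and Sox10. They were taken by symbol from the deposited table of 43350 gene rows, with a protein-coding row first and then the row with the most counts. All 9 were found, and all 9 lay above the limit of a mean FPKM of 0.5 (counts scaled to row length and library size) that left 26663 rows for testing. The samples were lumbar 4 to 6 DRG of male Sprague-Dawley rats, taken 11 days after surgery on the left sciatic nerve. In the 3 rats of the CCI group the nerve was loosely tied with ligatures, and in the 3 rats of the sham group it was exposed without ligation. All 6 rats therefore had skin and muscle opened, and none was left without surgery. The labels give the treatment of sham rats as none and state no age, and ganglia of 1 rat formed 1 sample. The tissue was bulk ganglion with neurons, satellite glia, Schwann cells, immune cells and vessels together, so that fewer cells of a type and less RNA per cell cannot be told apart in any value below.

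Myelinating Schwann cells wrap the larger axons of a peripheral nerve and of the ganglion in a sheath of compacted membrane. Sox10, a transcription factor carried by all glia of the neural crest, and Egr2, the zinc finger factor that sets the myelinating state, act together on the genes of the sheath. Pmp22 and Mbp encode proteins of compact myelin and Pmp2 a fatty acid binding protein found in it. Prx, Mag, Ncmap and Cnp encode proteins of the outer and inner contacts of the sheath and of its uncompacted cytoplasmic channels. After injury to an axon, Schwann cells along the nerve are known to lower these genes and to take on a repair state marked by Jun, while the ganglion lies at a distance from the lesion.

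The libraries held 75423546 to 87615743 counts each. The fewest counts of any of the 9 genes in a library was 1100, for Mag. The 2 groups were compared with edgeR's quasi-likelihood test, and a gene was called where its unadjusted p was under 0.05 and its log2 fold change was -0.58 or less or 0.58 or more, the limits of the study. Levels are given in CPM, counts scaled to library size. The summed level of 7 nerve injury genes did not overlap between the groups. Atf3, the injury-induced transcription factor, measured 117, 67.4 and 53.8 CPM in CCI 1, 2 and 3 and 6.32, 8.00 and 7.18 CPM in sham 1, 2 and 3. S100b, from a list of genes of Schwann cells and neural crest glia, measured 780 to 951 CPM over the 6 libraries. The share of Schwann cells was not measured.

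In sham ganglia the 9 genes spanned more than 2 orders of magnitude on the FPKM scale, which takes account of row length. Pmp22 was highest at 684 ± 21.9 FPKM (SD, n = 3), followed by Mbp at 127 ± 15.5 and Pmp2 at 119.6 ± 10.6 FPKM. On this scale Mbp and Pmp2 did not differ beyond their spread in sham rats. In CPM, which leaves out row length, Mbp stood at 1214 ± 138 and Pmp2 at 178 ± 15.2 in sham rats. The order of genes in FPKM thus depends on the length of each assembled row. Prx followed at 92.7 ± 5.91, the Cnp row at 27.3 ± 0.888 and Ncmap at 24.8 ± 0.0342 FPKM. The lowest were Sox10 at 9.75 ± 1.25, Mag at 5.06 ± 0.332 and Egr2 at 4.74 ± 0.251 FPKM, the last pair overlapping between libraries. In the CCI group Prx stood ahead of Pmp2 by its mean, with 84.5 ± 10.8 against 76.3 ± 23.1 FPKM, although their libraries overlapped. Egr2 stood ahead of Mag with 6.57 ± 1.92 against 4.42 ± 0.789 FPKM, every CCI library of Egr2 being above every CCI library of Mag.

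Of the proteins of compact myelin, Pmp2 alone was called, and it was lower in the CCI group. Pmp2 (chromosome 2, 93827504 to 93831419, plus strand) measured 86.7, 99.9 and 150.2 CPM in CCI 1, 2 and 3 and 188, 161 and 186 CPM in sham 1, 2 and 3. The groups did not overlap, although CCI 3 came close to sham 2. Mean CPM fell by 36.9%, which on the log2 scale was -0.67 (SE 0.20, 95% interval -1.15 to -0.18, unadjusted p = 0.0150 in edgeR's test). Over all 26663 rows the adjusted p was 0.322 (edgeR with Benjamini-Hochberg adjustment), and the 14 alternatives gave 0.0216 to 0.566. The call was lost without CCI 1, where the log2 fold change was -0.51, and without CCI 2, where it was -0.59 with an unadjusted p of 0.0505 in edgeR. Without CCI 3 the estimate was -0.93.

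Pmp22, a membrane protein of compact myelin whose dosage is linked to inherited neuropathy, did not pass the test. It lies on chromosome 10 (49538588 to 49568583, plus strand) and measured 1196, 1319 and 1576 CPM in CCI 1, 2 and 3. In sham 1, 2 and 3 it measured 1540, 1483 and 1474 CPM. The sham rats lay close together, and CCI 1 and 2 lay under all of them while CCI 3 lay above all of them. Its log2 fold change was -0.14 (standard error 0.10, 95% interval -0.38 to 0.11, unadjusted p = 0.230 in edgeR's test). The lower end of the interval lay short of the fold limit of -0.58.

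Mbp, which holds the cytoplasmic faces of the myelin membrane together, had the smallest difference of the 9. It lies on chromosome 18 (79326738 to 79437310, plus strand) and measured 1039, 1109 and 1372 CPM in CCI 1, 2 and 3 and 1364, 1185 and 1092 CPM in sham 1, 2 and 3. The highest library was CCI 3 and the lowest CCI 1, so that the sham rats lay within the range of the CCI rats. Its log2 difference was -0.05 (standard error 0.13, unadjusted p = 0.717 in edgeR's test), and its sign turned without CCI 1 (0.032) and without sham 1 (0.044).

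**Figure D1:**
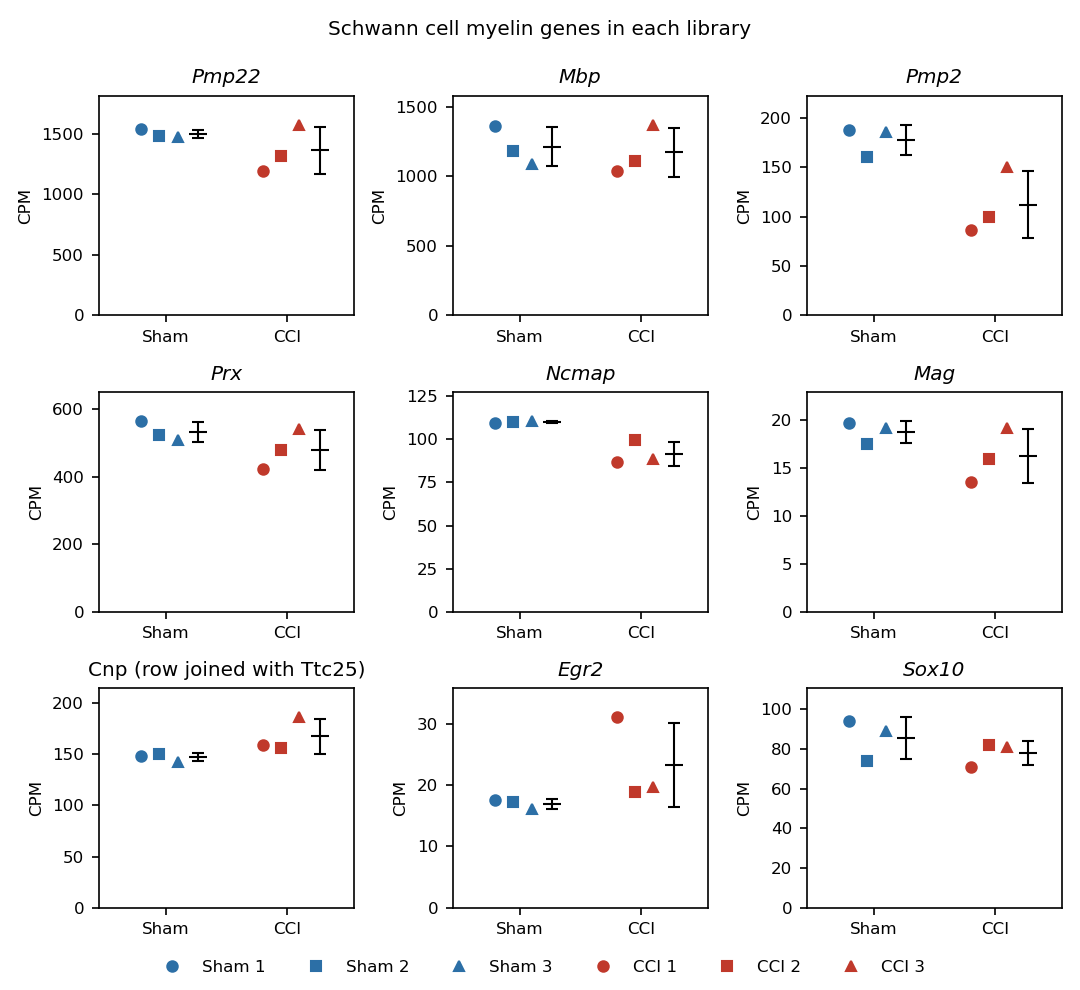
Level of each of the 9 genes in CPM (vertical axes from 0) in the sham libraries (blue) and CCI libraries (red), with a symbol for each rat and the group mean ± SD (n = 3) in black beside them. Pmp2 and Ncmap lie lower and Egr2 and the Cnp row higher in all CCI libraries than in any sham library, and the other 5 genes overlap.

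Of the genes of the outer sheath, its channels and its inner face, Ncmap had the most even difference. Ncmap encodes a small membrane protein of noncompact myelin, and its row lies on chromosome 5 (153725902 to 153737161, minus strand). It measured 86.9, 99.8 and 88.4 CPM in CCI 1, 2 and 3 and 109, 110.4 and 111 CPM in sham 1, 2 and 3. Every CCI library lay under every sham library, and the sham libraries were nearly equal (SD 0.724 CPM) with 8748 to 9595 counts each. The log2 difference of -0.26 (standard error 0.07, 95% interval -0.43 to -0.10) had an unadjusted p of 0.00627 in edgeR's test, the smallest of the 9 genes, but was under the fold limit of 0.58, so that Ncmap was not called. Its adjusted p was 0.247 in edgeR (0.0752 to 0.507 over the alternatives), and its log2 fold change stayed between -0.33 and -0.23 in all 14 alternatives.

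Prx, periaxin, links the outer surface of the Schwann cell to its basal lamina through the dystroglycan complex. It lies on chromosome 1 (84304228 to 84324560, plus strand) and measured 422, 479 and 540.5 CPM in CCI 1, 2 and 3 and 566, 524 and 509 CPM in sham 1, 2 and 3. CCI 1 and 2 were below all sham rats and CCI 3 among them. On the log2 scale the difference was -0.15 (standard error 0.10, unadjusted p = 0.173 in edgeR's test).

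Mag, an adhesion molecule of the inner sheath that faces the axon, followed the same arrangement at a much lower level. It lies on chromosome 1 (89345429 to 89361513, minus strand) and measured 13.6, 15.9 and 19.2 CPM in CCI 1, 2 and 3 and 19.7, 17.5 and 19.2 CPM in sham 1, 2 and 3. On the log2 scale the difference was -0.21 (standard error 0.14, unadjusted p = 0.170 in edgeR's test), with a 95% interval of -0.54 to 0.12.

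Cnp encodes a cyclic nucleotide phosphodiesterase of uncompacted myelin. Its row (chromosome 10, 88459490 to 88497356, plus strand) joins Cnp with Ttc25, which encodes a protein of ciliary motors and is its direct neighbour in RefSeq as well, with 0 genes between them. Counts of the 2 genes cannot be told apart in this row. It measured 159, 157 and 187 CPM in CCI 1, 2 and 3 and 149, 151 and 143 CPM in sham 1, 2 and 3, with all CCI libraries above all sham libraries. This log2 difference of 0.18 (standard error 0.08, unadjusted p = 0.0561 in edgeR's test) was not called.

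Egr2 differed in the other direction from Pmp2, although it is the factor that switches the myelin genes on. It lies on chromosome 20 (22454463 to 22459025, minus strand) and measured 31.2, 18.9 and 19.6 CPM in CCI 1, 2 and 3 and 17.5, 17.2 and 16.0 CPM in sham 1, 2 and 3. All CCI libraries were above all sham libraries, but CCI 1 was far above CCI 2 and 3. CCI 1 was also the highest of the 6 libraries for 11 of 14 macrophage markers and for all 7 nerve injury genes. Since 9 of these 14 and all of these 7 were called higher in CCI, a CCI library is likely to be the highest for them. The share of all rows highest in CCI 1 was not computed. In bulk ganglion the level of Egr2 cannot be assigned to Schwann cells, and the part of other cells in it was not tested. Its log2 fold change was 0.46 (standard error 0.20, 95% interval -0.02 to 0.93, unadjusted p = 0.0579 in edgeR's test), and Egr2 was not called. Without CCI 1 the log2 fold change was 0.19, and without CCI 2 it was 0.59 and called higher (unadjusted p = 0.0291 in edgeR's test). Sox10 (chromosome 7, 120390954 to 120402689, minus strand) measured 71.0, 82.3 and 81.0 CPM in CCI 1, 2 and 3 and 94.3, 73.9 and 88.9 CPM in sham 1, 2 and 3. The groups overlapped, and the log2 fold change was -0.13 (standard error 0.11, unadjusted p = 0.255 in edgeR's test).

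**Figure D2:**
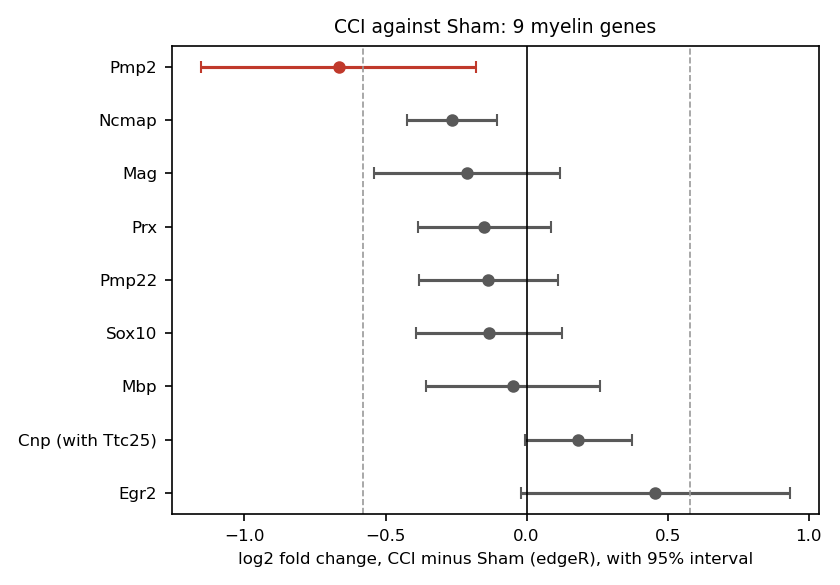
Log2 fold change of CCI minus sham from edgeR (horizontal axis) with its 95% interval for the 9 genes (circles), with dashed lines at the fold limits of -0.58 and 0.58. Pmp2 (-0.67, red) is the gene called, the interval of Ncmap also lies under 0, and those of the others include 0.

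In all, 1 of the 9 genes was called lower and 0 were called higher, where 1.26% of the 26663 rows were called lower and 2.57% higher, or 3.83% in either direction. At an unadjusted p under 0.05 with no limit on the fold there were 2 of the 9 (Pmp2 and Ncmap) against 10.7% of all rows. Without CCI 3 there were 6 of the 9 (Pmp2, Ncmap, Pmp22, Mag, Prx and Egr2) against 10.2% of all rows, and with any other library left out there were 2 or 3. At an adjusted p under 0.05, where 0.0938% of all rows were called (0.0638% higher and 0.03% lower), 0 of the 9 passed in edgeR and 1, Pmp2, in DESeq2 (adjusted p = 0.0216). Groups did not overlap for 2 genes with CCI lower (8.7% of all rows) and for 2 with CCI higher (8.63% of all rows), or 4 of the 9 in either direction (17.3% of all rows). The estimate was under 0 for 7 of the 9 genes and above 0 for Cnp and Egr2, and their median log2 fold change was -0.14 beside 0.01 over all rows tested. The summed level of the 9 genes was 3106, 3380 and 4033 CPM in CCI 1, 2 and 3 and 4048, 3722 and 3638 CPM in sham 1, 2 and 3, where the groups overlapped.

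In most of the 9 genes the CCI rats differed more among themselves than the sham rats did. For 8 of the 9 genes, all but Sox10, the SD of log2 CPM was larger in the CCI group, which was so for 52.4% of all rows tested. The median SD of the 9 genes was 0.20 on the log2 scale in the CCI group and 0.08 in the sham group, where all rows had medians of 0.20 and 0.18. Pmp22, Mbp, Pmp2, Prx and Mag were lowest of the CCI rats in CCI 1 and highest in CCI 3. This held for 5 of the 9 genes (55.6%), for 6 of 11 other genes of compact myelin and for 18.5% of all rows. CCI 1 was the lowest of all 6 libraries for 7 of the 9 genes, against 20.3% of all rows.

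The injury and macrophage genes were arranged the other way round among the same rats. The summed level of 7 nerve injury genes was 560, 358 and 303 CPM in CCI 1, 2 and 3, and 6 of the 7 were highest in CCI 1 and lowest in CCI 3 of the CCI rats. The summed level of 14 macrophage markers was 641, 508 and 451 CPM in the same order, against 248 to 288 CPM in sham rats, and 10 of the 14 were highest in CCI 1 and lowest in CCI 3. Among all rows tested this arrangement was found for 18.2%. Markers of fibroblasts and perineurial cells were also low in CCI 1 (1790 CPM) beside 2219 to 2578 CPM in the other 5 libraries. That sum includes Itgb4, which is on the list of sheath contacts too and was not low in CCI 1 (643 CPM against 557 to 610 CPM in sham rats). The summed level of endothelial markers was lowest in CCI 1 as well, at 114 CPM beside 127 to 158 CPM in the other 5 libraries. With 3 rats the relation between the myelin genes and these markers was not tested, nor was the part of other cells in the lower values of CCI 1.

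**Figure D3:**
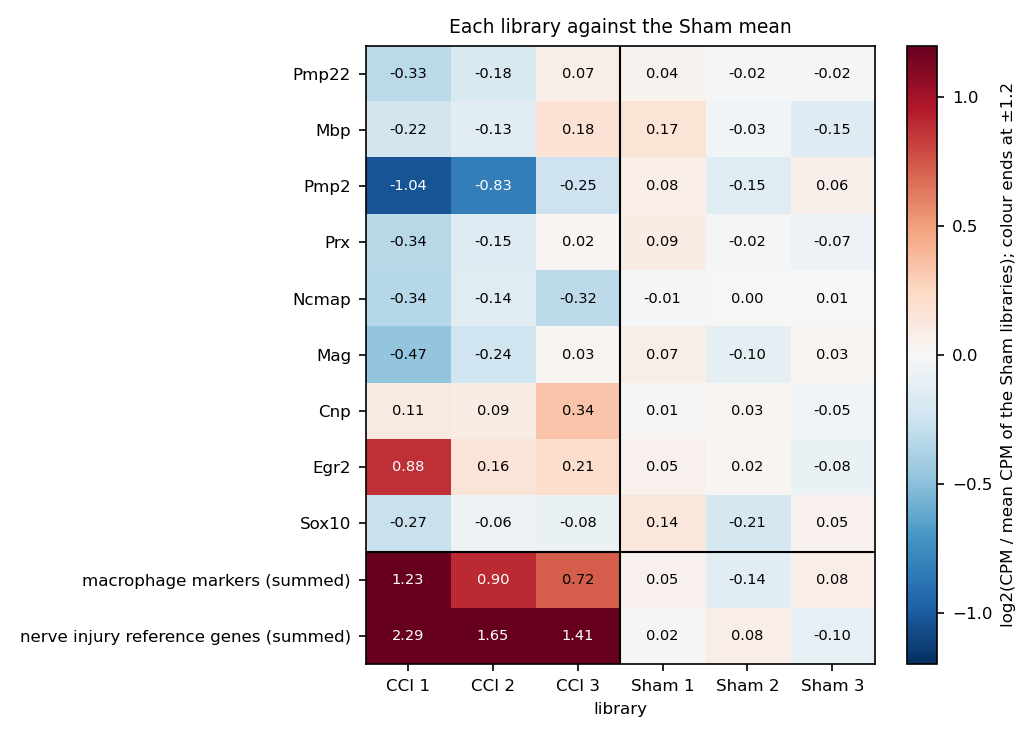
Log2 of each library's CPM over the mean CPM of the sham libraries, for the 9 genes and the summed macrophage and nerve injury lists (rows) in the 6 libraries (columns), with the values written in the cells. In CCI 1 Pmp2 stands at -1.04 and Mag at -0.47 while Egr2 stands at 0.88, and in CCI 3 Pmp22, Mbp, Prx and Mag stand between 0.02 and 0.18.

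To set the sheath genes against a nuclear factor of glia, the ratio of each gene to Sox10 was taken within each library. Myelinating and other glia of the ganglion carry Sox10, so that the ratio is not a level per myelinating Schwann cell. An exact two-sided permutation test of 3 rats against 3 cannot go under p = 0.1. The log2 ratio of Pmp2 to Sox10 was 0.29, 0.28 and 0.89 in CCI 1, 2 and 3 and 0.99, 1.12 and 1.06 in sham 1, 2 and 3, all CCI rats lying lower (difference -0.57, exact permutation p = 0.1, adjusted over 8 ratios 0.533). Pmp2 was the only gene of the 8 whose ratio did not overlap between the groups, as its CPM also did not. In CPM, 17.3% of all rows tested did not overlap in either direction. The share of all rows for ratios to Sox10 was not computed. The ratios of Pmp22, Prx, Mbp, Mag and Ncmap to Sox10 differed by -0.02, -0.03, 0.08, -0.09 and -0.14 on the log2 scale, with exact permutation p-values of 0.4 to 0.8. Those of Egr2 and the Cnp row differed by 0.55 and 0.31, each with an exact permutation p of 0.2.

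Pmp2 is a member of the fatty acid binding protein family, as is Fabp7, a marker of satellite glia in the ganglion. Fabp7 measured 11.5, 11.2 and 5.93 CPM in CCI 1, 2 and 3 and 15.1, 11.9 and 14.7 CPM in sham 1, 2 and 3. Its groups did not overlap, but the log2 difference of -0.55 (SE 0.26, unadjusted p = 0.0779 in edgeR's test) was not called. The lowest library of Fabp7 was CCI 3, the CCI rat in which Pmp2 was highest.

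Other genes of the sheath were called in neither direction. Of the 11 other genes of compact myelin, none was called, and the median of their log2 fold changes was 0.01. Among them Tspan2, a tetraspanin, and Cd59, an inhibitor of complement on the membrane, were higher in all CCI rats, with log2 fold changes of 0.31 (standard error 0.07) and 0.26 (standard error 0.06), under the fold limit. Of 16 genes of sheath contacts and the axoglial junction none was called, and their median was -0.10. Of 19 drivers of myelination none was called, with a median of 0.05. Their estimates lay above 0 for 12 and below 0 for 7. Pou3f1, a factor of promyelinating Schwann cells, came closest to the fold limit with 3.97, 3.38 and 4.48 CPM in CCI 1, 2 and 3 against 2.94, 2.78 and 2.35 CPM in sham 1, 2 and 3 (log2 fold change 0.55, standard error 0.18, unadjusted p = 0.0191 in edgeR's test). Adam22, in a row joined with AABR07059527, had a smaller p and was lower in all CCI rats. It measured 545, 680 and 576 CPM in CCI 1, 2 and 3 and 761, 769 and 818 CPM in sham 1, 2 and 3. Its log2 fold change was -0.38 (standard error 0.09, unadjusted p = 0.00455 in edgeR's test). Of 16 genes of myelin lipid synthesis none was called, and their median was 0.01.

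Genes of repair and immature Schwann cells were called in part. Of 25 listed, 19 were tested, and Jun, Gfap, Bdnf and Runx2 were called higher and none lower. Their median was 0.08 on the log2 scale. Jun, which opposes Egr2 in Schwann cells and is also induced in injured neurons, measured 167, 133 and 119 CPM in CCI 1, 2 and 3 and 65.9, 67.3 and 68.1 CPM in sham 1, 2 and 3 (log2 fold change 1.06, standard error 0.12). Gfap, an intermediate filament of nonmyelinating Schwann cells and reactive satellite glia, measured 35.2, 20.9 and 19.3 CPM in CCI 1, 2 and 3 and 10.9, 14.3 and 12.3 CPM in sham 1, 2 and 3. Both were highest in CCI 1. Adjusted over all rows, none of these passed 0.05 (0.0712 for Jun, edgeR with Benjamini-Hochberg adjustment). Ngfr, the neurotrophin receptor of immature Schwann cells, was not called and measured 460 to 531 CPM in CCI rats and 515 to 613 CPM in sham rats. Olig1, Gdnf, Artn, Lif, Ucn2 and Pax3 lay under the limit for testing.

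None of 8 genes of nonmyelinating Schwann cells was called. All 8 were tested, and the median of their log2 fold changes was 0.34. Their summed level overlapped between the groups, at 2030 to 2387 CPM in CCI rats and 1574 to 2484 CPM in sham rats. Cdh19, a cadherin of the Schwann cell lineage, measured 376, 296 and 321 CPM in CCI 1, 2 and 3 and 279, 248 and 243 CPM in sham 1, 2 and 3 (log2 fold change 0.37, standard error 0.10, unadjusted p = 0.0101 in edgeR's test). Of the genes that mark all Schwann cells and neural crest glia, 7 of 8 were found and tested and none was called (median 0.09). S100b had a log2 fold change of -0.08 and Erbb3, the neuregulin receptor, 0.09.

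Mbp, Mag and Cnp are made by oligodendrocytes too, which reach the dorsal root near the spinal cord. Of 10 oligodendrocyte markers 5 were tested and none was called (median 0.14). Olig2 had 4 counts in CCI 2 and 0 in the other 5 libraries, and Mobp and Opalin had 0 to 13 and 0 to 16 counts. Mog, a surface protein of the oligodendrocyte sheath, had 416 to 641 counts, so that not all defining markers were near 0. The part of oligodendrocytes in the levels of Mbp, Mag and Cnp was not tested. Of 11 satellite glia markers, Hes5 was called lower (log2 fold change -1.08) and none higher, with a median of -0.10. Of 14 macrophage markers 9 were called higher and none lower, with a median of 0.88.

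**Figure D4:**
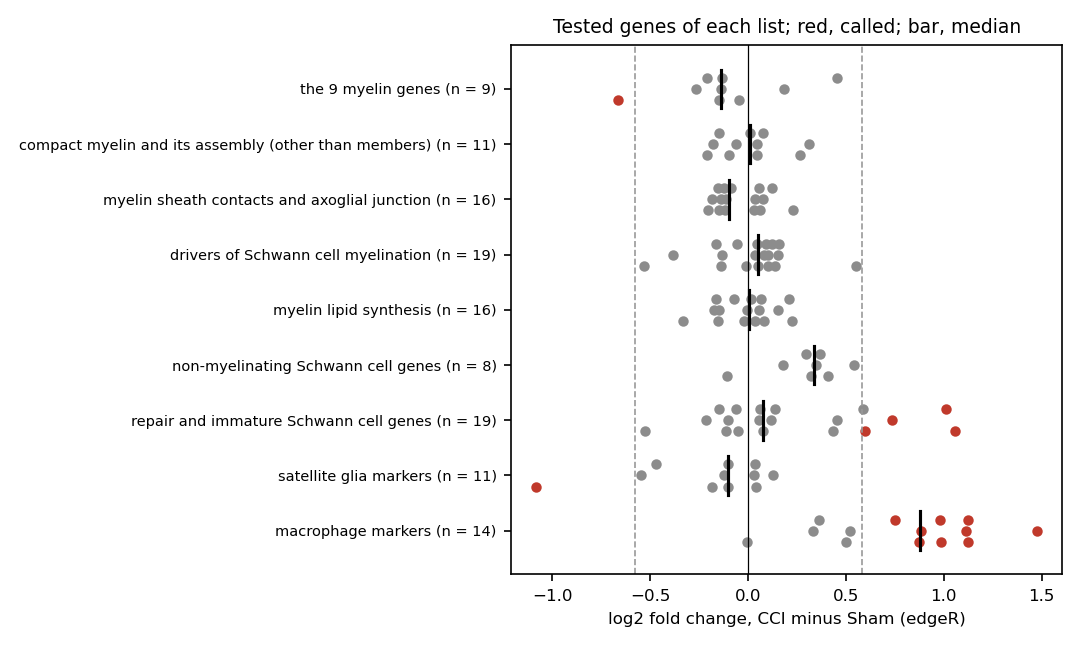
Log2 fold change of CCI minus sham from edgeR (horizontal axis) for every tested gene of the 9 myelin genes and of 8 other lists (rows, number tested in parentheses), with called genes in red, a bar at the median and dashed lines at -0.58 and 0.58. The lists of the sheath, its drivers and its lipids stay between these lines except for Pmp2, while 4 called repair genes and 9 called macrophage markers lie to the right.

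The genes most like the mean of the 9 genes over the 6 libraries were sought among 8754 protein-coding rows with a single symbol and at least 10 CPM. The mean was taken after each gene had been centred and divided by its SD. Of the 10 most alike, 9 are given here, namely Akr1b1, Ptpn14, Lpl, Fip1l1, Mme, LOC108348096, Spart, Smg8 and Nemp1, with Pearson's r from 0.992 to 0.970 over 6 libraries. None of them was called. Akr1b1, which encodes aldose reductase, measured 83.4, 98.3 and 122 CPM in CCI 1, 2 and 3 and 124, 109.7 and 113 CPM in sham 1, 2 and 3. Lpl, lipoprotein lipase, measured 6.65, 8.68 and 12.9 CPM in CCI 1, 2 and 3 and 13.7, 9.35 and 10.8 CPM in sham 1, 2 and 3. Of the 9 genes themselves, r with their mean was 0.978 for Prx, 0.969 for Pmp22, 0.965 for Mag, 0.883 for Pmp2 and 0.880 for Mbp, in which each gene is part of the mean. It was 0.717 for Sox10, 0.433 for Ncmap, 0.099 for Cnp and -0.733 for Egr2. The rows named from outside the 9 genes were picked as the highest of 8754 over 6 libraries, so that their r is high by selection. All these values are a description.

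Some rows carry the symbol of one of the 9 genes but were assembled on the other strand or beside it. A minus-strand row over Mbp held 1042 to 1404 counts a library, and a minus-strand row over Prx held 1759 to 3988. A further row beside Prx without a strand held 147 to 308 counts. None was called, with log2 fold changes of 0.06, -0.15 and -0.06. The library kit marks strand, but the counting is not stated to use it, so that reads of such pairs may not be fully separated.

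The deposited annotation of the 9 rows overlaps in a few terms. Mbp, Pmp2, Mag and Cnp carry the term myelin sheath, which 31 of the rows tested carry. Mbp, Pmp22 and Mag carry compact myelin (5 rows), and Mag and Ncmap carry Schmidt-Lanterman incisure (11 rows), the cytoplasmic channel through compact myelin.

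Since Egr2 and Sox10 act on the genes of the sheath, short letters that these factor families are known to prefer were looked for in promoters. RefSeq promoters of the assembly GRCr8, 250 bases before to 50 after a start site, were found for 7 of the 9 genes, not for Pmp2 and Sox10. The letters GTGGGNG, read on both strands, were present for 4 of the 7 (Mag, Mbp, Ncmap and Prx) and in 28.8% of 33469 promoters. The longer Egr letters GCGTGGGNG, which contain the former, were present for 0 of the 7 and in 1.66% of all promoters. The Sox letters ACAAAG were present for 3 of the 7 (Cnp, Mag and Mbp) and in 18.8% of all promoters, and ACAATG for 1 of the 7 (Mbp) and in 13.2%. A match is a description of letters and not a site of binding. The following windows of 30 bases, 5′ to 3′ on the strand of the gene, show the matches (capitals) of Mag and Prx, which followed the mean of the 9 genes closely, and of Ncmap and Cnp, whose groups did not overlap. Ncmap held 2 more Egr matches, at positions -93 and -109, which are not printed.
Mag, Egr letters at position -61 from the start site, chr1:95291087-95291116, minus strand: ggggctggcaaGTGGGGGcctagaccctgg
Mag, Sox letters on the opposite strand at position -152, chr1:95291179-95291208, minus strand: tgacaagggcccCTTTGTgcccccctcccc
Prx, Egr letters on the opposite strand at position -119, chr1:91914291-91914320, plus strand: tgtttccccacCACCCACcctttgggtgat
Ncmap, Egr letters on the opposite strand at position -57, chr5:152902453-152902482, minus strand: tcaccgccctcCTCCCACcttctctgatgt
Cnp, Sox letters at position -203, chr10:86011289-86011318, plus strand: aacttttaagtaACAAAGaggtggcggact
These positions are of GRCr8, and the coordinates of the gene rows above are of the genome the authors used. Coordinates of one do not apply to the other.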

How the data were processed

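Ribosome-depleted RNA of the ganglia was sequenced, and the authors aligned it to the rat genome they call V101. The submitters' processing notes name HISAT2 2.0 and StringTie 1.3.0. For each assembled gene row the authors deposited read counts and FPKM. The deposited counts are whole numbers without normalization, and assembled rows without a gene symbol, which stayed in the fit, held 5.37 to 5.72% of them. In the deposited FPKM columns a row without reads stands at 0.0001. The use of strand in counting is not given in the sources used here. The labels call the RNA used for a library pooled, whereas the study's methods have 1 rat for each sample. The miRNA libraries and the qRT-PCR measurements were not analysed here.

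The 6 count columns were matched to samples by title and fitted with edgeR 4.0.16 (TMM factors of 0.988 to 1.01, quasi-likelihood test, group as the only term) on the 26663 rows whose FPKM averaged 0.5 or more, and p-values were adjusted by Benjamini-Hochberg over all of them. Standard errors are the size of the log2 fold change over the root of the F statistic, and 95% intervals use the t distribution with the fit's 6.52 degrees of freedom. Where several rows carried a symbol of another list, rows that hold a protein-coding transcript came before others, then rows of a single gene, then those with more counts. The alternatives were RLE scaling, DESeq2 1.42.0, limma 3.58.1 on log2(FPKM + 0.1) and log2(FPKM + 1), no filter, a mean FPKM of at least 1, protein-coding rows, a block for the replicate number and each library left out. The tests were tried on simulated counts first. Within groups, counts of any 2 libraries differed far beyond sampling noise (chi-square over its degrees of freedom 57.3 to 84.2). The p-values rest on the spread between these libraries, in which rat, dissection and library preparation cannot be told apart. The labels give no library batch or date. The genes and the 17 other lists were chosen with earlier results of these data known. Genes named are the 9 genes, list genes that were called or are defining markers, and the 10 rows most like the 9 genes. Tspan2, Cd59, Pou3f1, Adam22, Cdh19, Fabp7, Nfasc and Itgb4 were named after their values were seen. Values of some list genes are not reported here. R 4.3.3 and Python 3.11.15 with pandas 2.3.3 and scipy 1.17.1 were used.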

Additional observations from a re-analysis of the deposited data

How the results depend on the processing

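The median log2 fold change of the 9 genes ranged from -0.24 to -0.06 when single libraries were left out. It was under 0 in all 14 alternatives, and its spread between rats was not estimated. Of the single genes, Pmp22, Prx, Mag, Ncmap, Sox10 and Cnp kept their direction and their side of the call in all 14. Pmp2 lost its call without CCI 1 (-0.51) and without CCI 2 (-0.59), so that between 0 and 1 gene was called lower with a library left out. Egr2 was called without CCI 2 (0.59), and between 0 and 1 gene was called higher. Mbp turned its sign without CCI 1 (0.032) and without sham 1 (0.044), in a range of -0.18 to 0.044 over single libraries left out. DESeq2 called 1 of the 9 genes at an adjusted p under 0.05. The ratios to Sox10, recomputed from FPKM + 0.1 and with each library left out, moved by less than 1 SD pooled over both groups. With single libraries left out, the Pmp2 ratio ranged from -0.77 to -0.47 and the Egr2 ratio from 0.25 to 0.72, and those of Mbp (-0.03 to 0.17), Pmp22 (-0.10 to 0.08) and Prx (-0.09 to 0.07) took either sign. Over all rows tested no pairing by replicate number was seen, with correlations of same-numbered deviations of -0.01, -0.02 and -0.05. A pairing that acts on part of the genes would not be seen in this way. With the replicate block 0 rows higher and 0 lower passed an adjusted p under 0.05, and Pmp2 stood at -0.70.

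Over all rows, 686 were called higher and 336 lower. Limma on log2(FPKM + 1) gave 410 and 161, and a fit of protein-coding rows gave 353 and 115. At an adjusted p under 0.05 the counts were 17 higher and 8 lower, with DESeq2 432 and 319, with protein-coding rows 41 and 35, and with limma on log2(FPKM + 0.1) 5 lower. Leaving out each library gave 3 to 40 higher and 3 to 21 lower. Of the genes of the other lists 7 were called lower, 2 with either limma fit and 3 to 9 with a library left out. The cause of these changes was not tested. Pmp22, Prx and Mag varied with the CCI rat left out. Without CCI 3 they stood at -0.25, -0.24 and -0.35 (unadjusted p = 0.0126, 0.0320 and 0.0255 in edgeR), and without CCI 1 at -0.05, -0.06 and -0.10.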

Other observations

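The axons that the sheath surrounds were also represented in the ganglion by their cytoskeleton. Of 14 sensory neuron markers Pvalb, a calcium binding protein of large proprioceptive neurons, was called lower (log2 fold change -0.69) and none higher, with a median of -0.18. Pvalb is also on the list of skeletal muscle markers given below, and the part of muscle in its difference was not tested. Nefl, the light neurofilament chain that is abundant in large myelinated axons, measured 3245, 3591 and 3397 CPM in CCI 1, 2 and 3 and 4931, 5156 and 5148 CPM in sham 1, 2 and 3. Its log2 fold change of -0.57 (standard error 0.06) lay just under the fold limit, with a Benjamini-Hochberg adjusted p of 0.0457 in edgeR. Nefh, the heavy chain, measured 2170, 2584 and 2426 CPM in CCI 1, 2 and 3 and 3272, 3529 and 3675 CPM in sham 1, 2 and 3. Both were lower in all CCI rats by a similar amount, without the high value in CCI 3 that Pmp22, Mbp, Prx and Mag had. Nfasc, a cell adhesion molecule of the node and the paranode, measured 445, 471 and 473 CPM in CCI 1, 2 and 3 and 502, 511 and 516 CPM in sham 1, 2 and 3, with a log2 fold change of -0.14 (standard error 0.05).

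Markers of other cells were uneven between rats in places. The summed level of 9 skeletal muscle markers was 508 CPM in sham 1 and 54.2 to 123 CPM in the other 5 libraries, and 6 of them, Pvalb included, were called lower. Of 7 T cell markers Cd4 alone was tested, and it was called higher (log2 fold change 0.68). Cd3e, Cd3d and Cd3g were under the limit for testing, so that the list rests on 1 gene. The cells that carried Cd4 were not determined. Of the markers of fibroblasts and perineurial cells (7 tested, median -0.01), endothelium (5 tested, median -0.11) and erythrocytes (4 tested, median -0.46) none was called. All 7 nerve injury genes were called higher, with a median log2 fold change of 4.49.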
